A study of Homo sapiens with 48 samples.

Results

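The YFSJ by gefitinib interaction asks whether the RNA response of H1975 cells to the preparation named YFSJ differed when gefitinib was also present. For each gene it is the log2 level under both treatments, minus that under YFSJ alone, minus that under gefitinib alone, plus that in untreated cells. A value of 0 means that the fold changes of the 2 treatments multiply, a positive value that the gene lay above that product, and a negative value that it lay below. The main value is the mean over 4 dose pairs and used 27 of the 48 libraries of the series, in 9 groups of 3. All 9 groups were H1975 cells, an established human non-small cell lung cancer line with mutated EGFR, taken at 24 h. They were untreated cells, gefitinib at 50 or 75 µM, YFSJ at 2.5 or 5 mg/mL, and each YFSJ dose with each gefitinib dose. Gefitinib is a small molecule that blocks the kinase of the epidermal growth factor receptor EGFR. The labels give YFSJ only as these letters and do not name a vehicle control. The submitters call the 3 libraries of a group biological replicates but do not say whether they were separate cultures, so p-values measure only the spread between these libraries.

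EGFR signals through RAS and the kinases MEK and ERK to a set of fast transcription factors and feedback phosphatases, among them FOS, MYC and the DUSP genes. H1975 cells are known for a second EGFR change that weakens gefitinib binding. Sterol synthesis, also prominent in the results, is governed by SREBP-2, a membrane-bound factor released to the nucleus when cell sterols are low, which then raises the enzymes of the pathway. The aryl hydrocarbon receptor is a ligand-sensing factor that many plant compounds bind and whose best known target is CYP1A1. Interferon-stimulated genes are antiviral genes switched on by the ISGF3 complex, which contains IRF9.

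The 27 libraries held 16428398 to 25030192 counts, and a count of 3 corresponded to between 0.12 and 0.183 CPM, counts scaled to a common library size by the TMM factors. The labels name H1975 but carry a catalogue number that belongs to another line, the breast line MCF-7. The median over the libraries was 57 CPM of NKX2-1, a lung lineage factor, and 96.6 CPM of EGFR, against 0.116 CPM of the breast marker ESR1 and 0 of PGR. The lung markers SFTPB and SFTPC had medians of 0 and 0.0504 CPM. Of 20 lung lineage markers 10 had a median of at least 1 CPM, and of 14 luminal breast markers 4 did. The identity of the line was not tested further. As in all bulk RNA, fewer cells of a kind and less RNA per cell cannot be told apart. The library labelled 5 mg/mL YFSJ with 50 µM gefitinib, replicate 3, lacked the rise of genes that YFSJ alone raised. Over 53 genes that YFSJ alone raised at least 2-fold, read against gefitinib alone at the same dose, its median log2 difference was -0.01. The other 11 combination libraries gave 0.28 to 0.69. Over the 25 genes that YFSJ alone lowered at least 2-fold, its median was 0, as was that of replicate 2 of the same group, against -0.62 to -0.16 in the other 10. Its DUSP1, FOS and MYC, at 132, 204 and 1370 CPM, lay above every library of gefitinib alone, as in the rest of its group. Its INSIG1 and BMF, given below, lay within the range of gefitinib alone. Why this library differed was not tested. It is called the library without the YFSJ rise below. A second library, 2.5 mg/mL YFSJ with 75 µM gefitinib, replicate 2, lay farthest from its group in 60.1% of genes, against 18.7% to 53.4% for the 25 others apart from these 2. It also had 2.18% of its counts in the mitochondrial ribosomal gene RNR2. Both were singled out after the values were seen, and results are given below with and without them. Transcripts of liver and muscle marked some libraries. All 3 libraries of 2.5 mg/mL YFSJ alone held 3249 to 3557 counts of ALB, the liver's albumin, against at most 6 in the other 24, and 25 of 30 liver markers were higher in each of these 3 than in all other libraries. The summed level of the 30 was 716 to 809 CPM in these 3 and 263 to 808 in the others. In 6 of the 27 libraries there were 14 to 30 counts of the muscle myosin MYH2 against at most 1 elsewhere: all 3 of 5 mg/mL YFSJ alone, replicates 1 and 2 of 2.5 mg/mL with 50 µM, and replicate 2 of 2.5 mg/mL with 75 µM. Every library of YFSJ alone therefore belonged to one of these sets, and the set and YFSJ without gefitinib cannot be told apart in them.

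Of 15789 genes tested, 102 lay above the product of the single treatments (0.646%) and 166 below it (1.05%) at an adjusted p under 0.05 in edgeR's quasi-likelihood test with Benjamini-Hochberg adjustment. Values past this threshold are called below. At an unadjusted p under 0.05 there were 2711 genes, and DESeq2 called 183 above and 323 below. Scaling by library totals alone, without the TMM factors, gave 75 above and 197 below, so that the share above the product was 27.6% in place of 38.1%. Of the 268 called genes (1.7%), 266 had the same sign in all 4 dose pairs and 29 reached a log2 value of 1 or more in size, 9 above and 20 below. The genes were called on the mean of these pairs, which share untreated and single-treatment libraries. Their shared sign is therefore no separate evidence. The median called value was 0.48 above and -0.53 below the product, against a median of 0.003 over all genes and a median standard error (SE) of 0.14. Without both libraries that stood apart, 169 genes were called above (1.06%) and 261 below (1.63%), and 265 of the 268 were still called. With a term for the liver set, 62 and 106 were called (0.393% and 0.671%), and with terms for both sets 120 and 175 (0.76% and 1.11%). The liver term itself was called for 99 genes, of which 1 is among the 268. GC content moved with the result: the median GC content of transcripts was 43.5% for genes called above, 56.4% for those below and 49.2% for the rest. With all genes split into 5 classes by GC content, the median interaction was 0.16 in the lowest class and -0.19 in the highest. After a correction for GC content, added after the values were seen, 93 and 151 genes were called (0.589% and 0.956%), and 155 of the 268 were among them. With that correction 10 immediate early and 9 ERK output genes were called, all above the product, and 15 sterol synthesis, 12 interferon and 4 aryl hydrocarbon receptor genes, all below. The NF-kB and cytokine list and the ATF4 and CHOP list each had 1 above and 3 below.

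The response to YFSJ itself was called for similar numbers of genes with and without gefitinib. YFSJ alone raised 738 genes (4.67%) and lowered 525 (3.33%) against untreated cells. YFSJ with gefitinib raised 675 (4.28%) and lowered 585 (3.71%) against gefitinib alone, in libraries that the first comparison does not use. The 201 genes raised in both made up 27.2% of the first list and 29.8% of the second, and the 82 lowered in both made up 15.6% and 14%. A further 21 genes were called in opposite directions. Membership in one list and not in the other is no test of a difference; that test is the interaction.

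**Figure D1:**
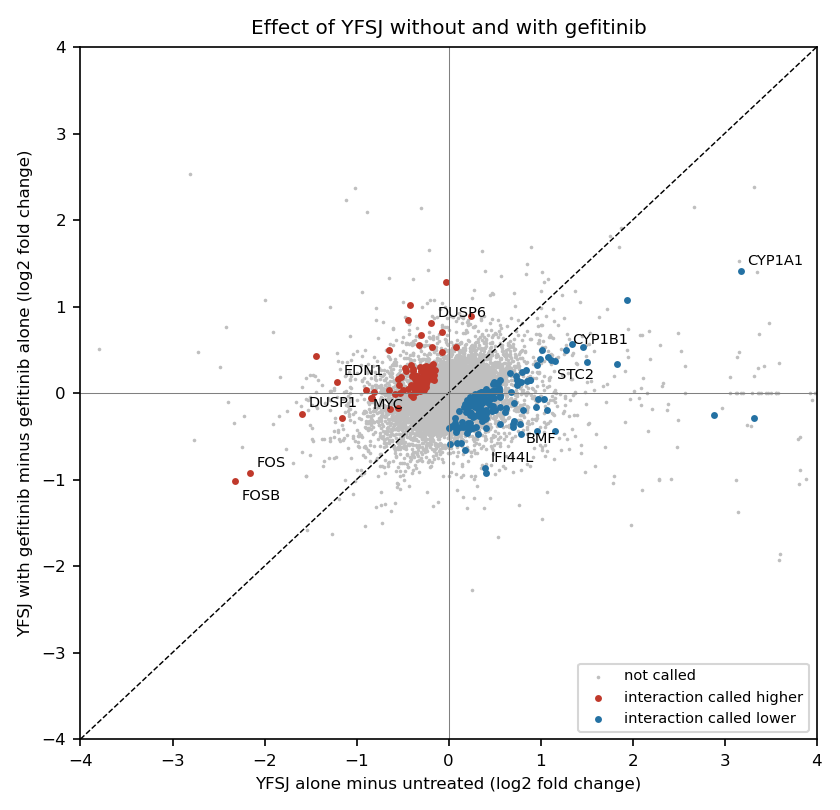
Log2 change caused by YFSJ alone, against untreated cells (horizontal axis), and by YFSJ beside gefitinib, against gefitinib alone (vertical axis), for each gene tested, as the mean over doses. The dashed line marks equal change, and coloured points are the genes called for the interaction, 102 above the line and 166 below it; 33 genes with a change beyond 4 on either axis are not drawn.

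Immediate early genes lay above the product. These are genes such as FOS and MYC that growth factor signals switch on within minutes. Of 25 tested, 8 were called and all 8 were above (all genes: 0.646%): DUSP1, FOS, FOSB, MYC, JUN, NR4A2, KLF6 and ZFP36. The list's median interaction was 0.55 on the log2 scale, against 0.003 over all genes. YFSJ alone lowered 14 of the 25 and raised 1 (all genes: 3.33% and 4.67%), with a median of -0.61, whereas with gefitinib it lowered 2 and raised 3 (all genes: 3.71% and 4.28%), with a median of -0.02. The list is reported with earlier results of these data known, and its counts describe it only.

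DUSP1, a phosphatase that switches off MAP kinases, had the smallest p of all genes tested for the mean interaction. Untreated libraries held 121, 107 and 115 CPM of DUSP1, 50 µM gefitinib 82.9, 74.8 and 88.2, and 75 µM gefitinib 82.8, 66.6 and 80.4. With YFSJ alone DUSP1 was at 38.5, 33.6 and 38.5 CPM at 2.5 mg/mL and at 42.4, 36.8 and 37.5 at 5 mg/mL. With both, it was at 40.4, 47.4 and 42.3 CPM (2.5 mg/mL with 50 µM), 67.9, 40.1 and 70.5 (2.5 with 75), 111, 105 and 132 (5 with 50), and 69.1, 64.6 and 69.8 (5 with 75). All 6 libraries of YFSJ alone therefore lay below all 6 of gefitinib alone, yet adding gefitinib to 5 mg/mL YFSJ brought DUSP1 above every library of YFSJ alone. Group means were 164%, 241%, 417% and 260% of the product in these 4 pairs, and the mean interaction was 1.36 (SE 0.14, adjusted p = 1.33e-08). YFSJ lowered DUSP1 by itself, with a log2 change of -1.59 (SE 0.11, adjusted p = 2.57e-14), but its change with gefitinib was -0.24 (SE 0.08, adjusted p = 0.0523).

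The 250 bases before the DUSP1 start site are shown because they hold the cyclic AMP response element TGACGTCA, here in capitals, at which CREB and ATF factors bind. The sequence is RefSeq's, on GRCh38.p14, chr5:172771196-172771445, minus strand, while the authors' alignment used hg19. The element's first base lies 125 bases before the start.
DUSP1: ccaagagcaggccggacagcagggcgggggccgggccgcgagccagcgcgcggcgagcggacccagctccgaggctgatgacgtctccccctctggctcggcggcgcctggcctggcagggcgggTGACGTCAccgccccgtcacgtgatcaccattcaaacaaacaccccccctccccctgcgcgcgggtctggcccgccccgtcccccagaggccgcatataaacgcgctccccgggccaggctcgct
Searched on both strands, TGACGTCA is in 578 of 35116 such windows (1.65%) and in 1 of the 6 called early genes that matched a window. A match describes the letters only.

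FOS, a subunit of the AP-1 transcription factor, was at 66.2, 72.7 and 83.4 CPM in untreated cells and between 86.3 and 109 in the 6 libraries of gefitinib alone. YFSJ alone gave 19.2, 18.2 and 20.3 CPM at 2.5 mg/mL and 14.5, 14.8 and 14.1 at 5 mg/mL. With both, FOS was at 23.3, 24.2 and 19.8 CPM (2.5 with 50), 52.3, 11 and 50.4 (2.5 with 75), 115, 128 and 204 (5 with 50), and 57.2, 49.2 and 57 (5 with 75). The combination of 5 mg/mL with 50 µM was thus above every untreated library, while all 3 libraries of 2.5 mg/mL with 50 µM stayed below them. FOS had a mean interaction of 1.23 (SE 0.28, adjusted p = 0.0158), and its relative FOSB one of 1.3 (SE 0.31, adjusted p = 0.0197). In the pair of 2.5 with 50 both lay below the product, at 84.2% for FOS and 94% for FOSB. Neither was called with the liver term (adjusted p = 0.051 and 0.0598), with both set terms (0.0742 and 0.0735) or without replicate 2 of the untreated group, and FOSB also not without replicate 3 of it. FOS was not called in the fit of the 27 libraries alone (adjusted p = 0.0553). In the 2.5 mg/mL pairs alone FOS had 0.21 and FOSB 0.22 (adjusted p = 0.85 and 0.87). MYC, a growth-promoting factor, lay in untreated cells at 1620, 1690 and 1760 CPM, and all 12 libraries of a single treatment were lower, between 814 and 1100. It was at 728, 767 and 759 CPM with 2.5 mg/mL and 50 µM, 1070, 490 and 1030 with 2.5 and 75, 1410, 1390 and 1370 with 5 and 50, and 1110, 1330 and 1210 with 5 and 75. Both 5 mg/mL combinations exceeded every library of a single treatment, and MYC had an interaction of 0.93 (SE 0.15, adjusted p = 0.000202). KLF6, a zinc finger factor, rose with gefitinib only beside YFSJ: its gefitinib change was 0.13 (SE 0.08, adjusted p = 0.147) alone and 0.87 (SE 0.06, adjusted p = 1.66e-17) beside YFSJ, and its interaction of 0.73 (SE 0.1, adjusted p = 4.5e-06) tests that difference. The remaining called members had interactions of 0.78 for ZFP36, an mRNA decay factor (adjusted p = 0.0164, not called without replicate 2 of the untreated group), 0.52 for JUN (adjusted p = 0.0422) and 0.78 for NR4A2 (adjusted p = 0.0497), while EGR1 was not called at 0.47 (adjusted p = 0.418).

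Some libraries of the muscle set stood apart in these genes, but not in 1 direction. Replicate 2 of 2.5 mg/mL with 75 µM, which is in the set, was the lowest of its group in 7 of the 8 called early genes; FOS in it was 11 CPM against 52.3 and 50.4. Replicate 2 of 2.5 mg/mL with 50 µM, also in the set, was the highest of its group in 7 of the 8. Replicate 1 of that group, in the set too, was the highest in 0 and the lowest in 4. With the liver term 4 of the 25 early genes were called, with both terms also 4, and without both libraries that stood apart 11. The part of the sets in the result was not tested beyond these values.

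The feedback genes of ERK gave a related picture. Of 30 genes on a list of EGFR to ERK output, 6 were called and all 6 were above the product (all genes: 0.646%). They were DUSP5, DUSP6, PHLDA1, FOS, JUN and MYC, of which the last 3 are also on the early list. The median of the list was 0.33. Gefitinib alone lowered 19 of the 30 and raised 3 (all genes: 29.3% lowered, 30.2% raised), with a median of -0.67, and beside YFSJ it lowered 17 and raised 5 (all genes: 33.3% and 36%), with a median of -0.32. DUSP6, the cytoplasmic phosphatase specific for ERK, was at 17.3, 17.9 and 16.8 CPM in untreated cells, 6.18, 4.95 and 6.35 with 50 µM gefitinib, and 7.07, 8.02 and 6.51 with 75 µM. YFSJ alone left it at 13.5, 14.6 and 15.1 CPM at 2.5 mg/mL and 15.1, 15.9 and 17.4 at 5 mg/mL. In combination DUSP6 was at 7.96, 9.03 and 8.55 CPM (2.5 with 50), 10.1, 10.3 and 11.4 (2.5 with 75), 16.6, 12.3 and 9.13 (5 with 50), and 14.9, 14.1 and 14.4 (5 with 75). Every combination except 1 library was thus above all 6 libraries of gefitinib alone: the lowest, 7.96 CPM, lay within the 75 µM range, and 9.13 CPM, the lowest at 5 mg/mL, was the library without the YFSJ rise. The interaction of DUSP6 was 0.99 (SE 0.13, adjusted p = 5.87e-06). DUSP5, the nuclear ERK phosphatase, had an interaction of 0.77 (SE 0.12, adjusted p = 0.00011); gefitinib changed it by -0.77 (SE 0.1, adjusted p = 5.08e-09) alone and by 0 (SE 0.07, adjusted p = 0.981) beside YFSJ. PHLDA1, another ERK target, had an interaction of 0.45 (SE 0.1, adjusted p = 0.00716). Not all output genes took part: SPRY4, DUSP4 and ETV4, other known ERK targets, had 0.19, 0.02 and -0.09, none called.

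Levels of the receptors did not differ detectably from the product. None of 23 receptor genes and none of 7 EGFR family ligands tested was called (all genes: 1.7%). EGFR had an interaction of 0.17, ERBB2 of -0.38, ERBB3 of 0.05, and the bypass receptors MET and AXL of 0.12 and 0.05. DESeq2 called ERBB2 (adjusted p = 0.0392).

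**Figure D2:**
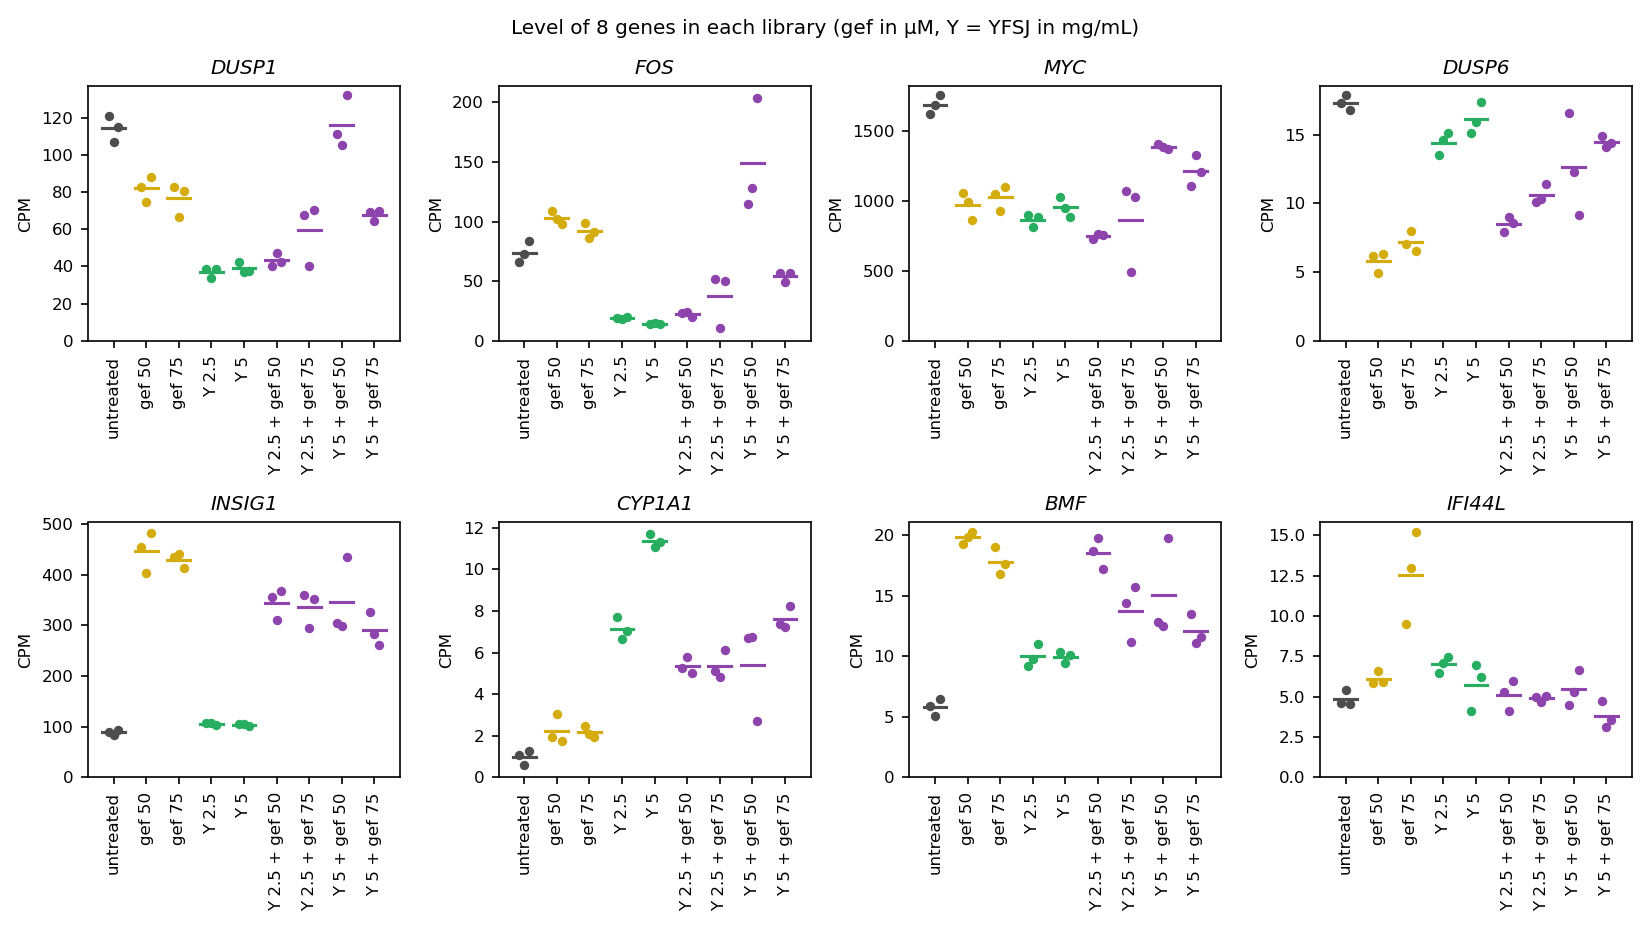
Level in CPM of 8 genes in each of the 27 libraries, with 1 panel per gene and 1 column per group; points are libraries and bars are means of 3. Group means of DUSP1, FOS, MYC and DUSP6 in the 5 mg/mL combinations lay above the product of the single treatments, and those of INSIG1, BMF, CYP1A1 and IFI44L lay below it; of the first 4, MYC alone exceeded both single treatments in every library of both combinations.

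Sterol synthesis genes lay below the product. Of 34 genes for cholesterol and fatty acid synthesis, 15 were called and all 15 were below (all genes: 1.05%). A value below 0 was held by 32, and the median was -0.43, against 0.003 over all genes. Gefitinib alone raised 31 of the 34 (all genes: 30.2%) with a median log2 change of 1.32; beside YFSJ it raised 29 (all genes: 36%) with a median of 0.87. YFSJ alone raised 5 and lowered none (all genes: 4.67% and 3.33%), with a median of 0.11, but with gefitinib it lowered 24 and raised 1 (all genes: 3.71% and 4.28%), with a median of -0.33. Called members include genes of the mevalonate steps (HMGCS1, MVD, FDPS), squalene and sterol steps (FDFT1, SQLE, LSS, DHCR7, HSD17B7), lipid genes (FASN, FADS2, ACSS2), and the regulators SREBF2 and INSIG1.

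INSIG1, which holds SREBP in the endoplasmic reticulum, was at 90.1, 83.5 and 94 CPM untreated, between 102 and 107 with YFSJ alone, between 404 and 483 with gefitinib alone, and between 262 and 434 with both. Only the library without the YFSJ rise (434 CPM) and none of the other 11 combination libraries reached the gefitinib-alone range of INSIG1, whose interaction was -0.65 (SE 0.11, adjusted p = 0.000234). LSS, which closes the sterol ring, lay between 64.9 and 77.6 CPM untreated, between 88.1 and 102 with YFSJ, and between 539 and 687 with gefitinib. With 5 mg/mL YFSJ and 75 µM gefitinib it was at 379, 400 and 472 CPM, and its interaction was -0.69 (SE 0.14, adjusted p = 0.00307). DHCR7, the last step to cholesterol, had -0.63 (SE 0.13, adjusted p = 0.00301), and MVD, the decarboxylase of the mevalonate route, had -0.84 (adjusted p = 0.0115).

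The 250 bases before the start site of SREBF2, the gene of SREBP-2, are shown because they hold the 10 letters of the sterol regulatory element, in capitals, which begin 134 bases before the start. The sequence is RefSeq's (GRCh38.p14, chr22:41832855-41833104, plus strand).
SREBF2: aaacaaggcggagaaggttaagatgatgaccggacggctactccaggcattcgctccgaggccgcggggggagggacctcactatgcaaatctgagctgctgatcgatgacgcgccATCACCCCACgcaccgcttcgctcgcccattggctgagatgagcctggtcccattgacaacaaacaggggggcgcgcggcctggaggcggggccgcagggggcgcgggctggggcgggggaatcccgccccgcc
Only 12 of the 35116 windows hold these 10 letters on either strand (0.0342%), and of the 10 called members that matched a window SREBF2 alone had them. The gene itself was called, with an interaction of -0.4 (SE 0.11, adjusted p = 0.0443).

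The library without the YFSJ rise weighed on this group: it was the highest of its 3 in all 15 called sterol genes. Without both libraries that stood apart 21 of the 34 were called below the product. With the liver term 9 were, and with both set terms 11. The dose of YFSJ moved the count too: 20 were called from the 5 mg/mL pairs alone (1.24% of all genes were lower) and 2 from the 2.5 mg/mL pairs alone (0.209%), a difference between doses that was not called for any of the 34 genes.

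**Figure D3:**
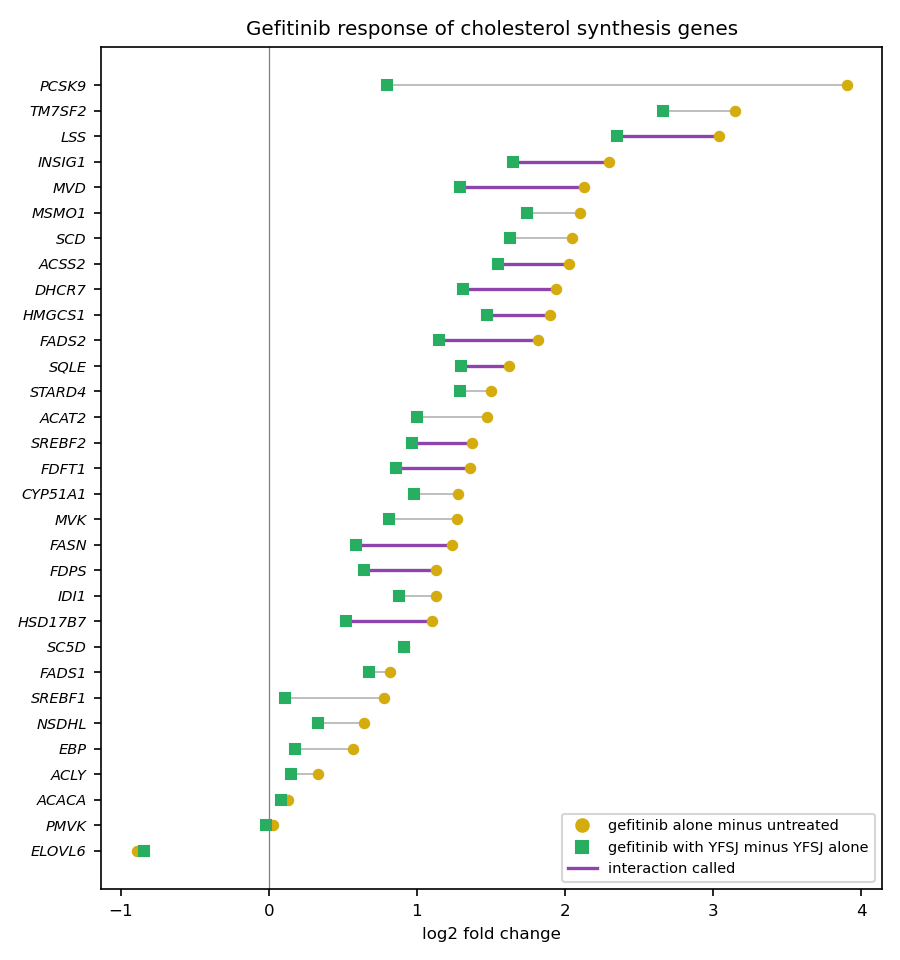
Log2 change caused by gefitinib without YFSJ (circles) and beside YFSJ (squares) for 31 of the 34 sterol and lipid synthesis genes, as means over doses. The square lies to the left of the circle for 29 of the 31 genes drawn.

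Targets of the aryl hydrocarbon receptor lay below the product as well. Of 9 tested, 4 were called, all below (all genes: 1.05%): CYP1A1, CYP1B1, AHRR and SLC7A5. YFSJ alone raised 6 of the 9 (all genes: 4.67%) with a median log2 change of 0.84, and with gefitinib it raised 5 (all genes: 4.28%) with a median of 0.28. CYP1A1, a monooxygenase of foreign compounds, was at 1.08, 0.58 and 1.25 CPM untreated. It was at 7.73, 6.67 and 7.02 CPM with 2.5 mg/mL YFSJ and 11.7, 11.1 and 11.3 with 5 mg/mL, so the doses did not overlap. Gefitinib gave 1.92, 3.03 and 1.74 CPM at 50 µM and 2.48, 2.09 and 1.96 at 75 µM. The combinations gave 5.27, 5.79 and 5.03 (2.5 with 50), 5.12, 4.83 and 6.15 (2.5 with 75), 6.7, 6.74 and 2.72 (5 with 50), and 7.38, 7.25 and 8.22 (5 with 75). Each combination thus lay below YFSJ alone at its dose although gefitinib by itself raised CYP1A1, with a log2 change of 1.15 (SE 0.26, adjusted p = 0.000229). Beside YFSJ the gefitinib change was -0.61 (SE 0.11, adjusted p = 3.88e-06), and the interaction was -1.76 (SE 0.28, adjusted p = 0.000145). CYP1B1, its relative, kept rising: it was between 259 and 289 CPM untreated, 593 and 795 with YFSJ, 784 and 904 with gefitinib, and, leaving aside the library without the YFSJ rise at 847, between 1100 and 1300 with both. Its group means, that library included, were 49% to 67% of the product, with an interaction of -0.78 (SE 0.11, adjusted p = 2.37e-05). AHRR, the receptor's repressor, had -0.57 (SE 0.14, adjusted p = 0.0209), which was not called with the liver term (adjusted p = 0.069), with both set terms (0.0628) or in 4 of the 27 omissions of a single library. AHR itself was not called at 0.32. With both set terms, 2 of the 9 were called.

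Interferon-stimulated genes lay below the product, and for 4 of them the value was lower at the higher gefitinib dose. Of 46 tested, 8 were called and all 8 were below (all genes: 1.05%): IFI44L, MX1, MX2, OAS2, IFI6, IFI27, IRF9 and BST2. A value below 0 was held by 43, and the median was -0.30, against 0.003 over all genes. The median of the list was -0.11 and -0.14 in the pairs with 50 µM, and -0.43 and -0.48 in those with 75 µM. At 75 µM, 8 members were called with 2.5 mg/mL (0.272% of all genes were lower) and 16 with 5 mg/mL (0.887%). IFI44L was at 4.61, 5.41 and 4.56 CPM untreated and between 4.09 and 7.47 in the 6 libraries of YFSJ alone. Gefitinib left it at 5.87, 6.6 and 5.91 CPM at 50 µM and at 9.49, 13 and 15.2 at 75 µM. All 12 combination libraries were between 3.14 and 6.69 CPM. The rise at 75 µM of gefitinib was therefore not seen in any library that also had YFSJ, and the interaction was -1.27 (SE 0.2, adjusted p = 0.000106). MX1, an antiviral GTPase, went from between 9.66 and 10.3 CPM untreated to 28.5, 38 and 47.9 with 75 µM gefitinib, and lay between 15.9 and 24.8 with YFSJ and 75 µM together. OAS2, a sensor of double-stranded RNA with an interaction of -0.79 that was not called with both set terms (adjusted p = 0.0516) or without replicate 3 of the untreated group, followed the same order, at 15.1, 19.9 and 25.1 CPM with 75 µM gefitinib and between 6.52 and 11.8 with YFSJ added. IRF9, the DNA-binding part of ISGF3, had an interaction of -0.66 (SE 0.11, adjusted p = 0.000202), and BST2, which tethers budding virus, of -0.56 (SE 0.1, adjusted p = 0.000856). ISG15 had -0.08 and was not called.

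The test of the difference between gefitinib doses called 5 genes in all (0.0317%), all lower at 75 µM, and 4 of them are on the interferon list. The difference was -1.32 (SE 0.22) for IFI44L, -1.16 for OAS2 and -1.07 for MX1 (each adjusted p = 0.00305), -0.75 for MX2 (adjusted p = 0.0178), and -1.42 for REC8, a meiotic cohesin subunit (adjusted p = 0.0373). The third library of 75 µM gefitinib was the highest of all 27 in IFI44L, MX1 and OAS2. Without it 0 genes were called by edgeR, with 565 at an unadjusted p under 0.05; over all libraries DESeq2 called 9.

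The 250 bases before the start of IFI44L are shown because they hold the core of the interferon-stimulated response element (TTTC, any 2 bases, TTTC) in 2 places, 164 and 73 bases before the start. It stands in capitals, on the reverse strand, within a repeated stretch. The sequence is RefSeq's (GRCh38.p14, chr1:78620198-78620447, plus strand).
IFI44L: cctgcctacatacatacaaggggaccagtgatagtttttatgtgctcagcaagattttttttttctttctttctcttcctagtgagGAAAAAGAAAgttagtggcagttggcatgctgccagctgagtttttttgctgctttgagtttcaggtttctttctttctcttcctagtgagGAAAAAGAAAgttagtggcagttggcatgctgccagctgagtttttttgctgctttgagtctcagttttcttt
The core is in 1061 of 35116 windows (3.02%) and in 5 of the 6 called members that matched a window, IFI6, IFI27, IFI44L, MX1 and BST2. The motif was chosen with the values known.

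**Figure D4:**
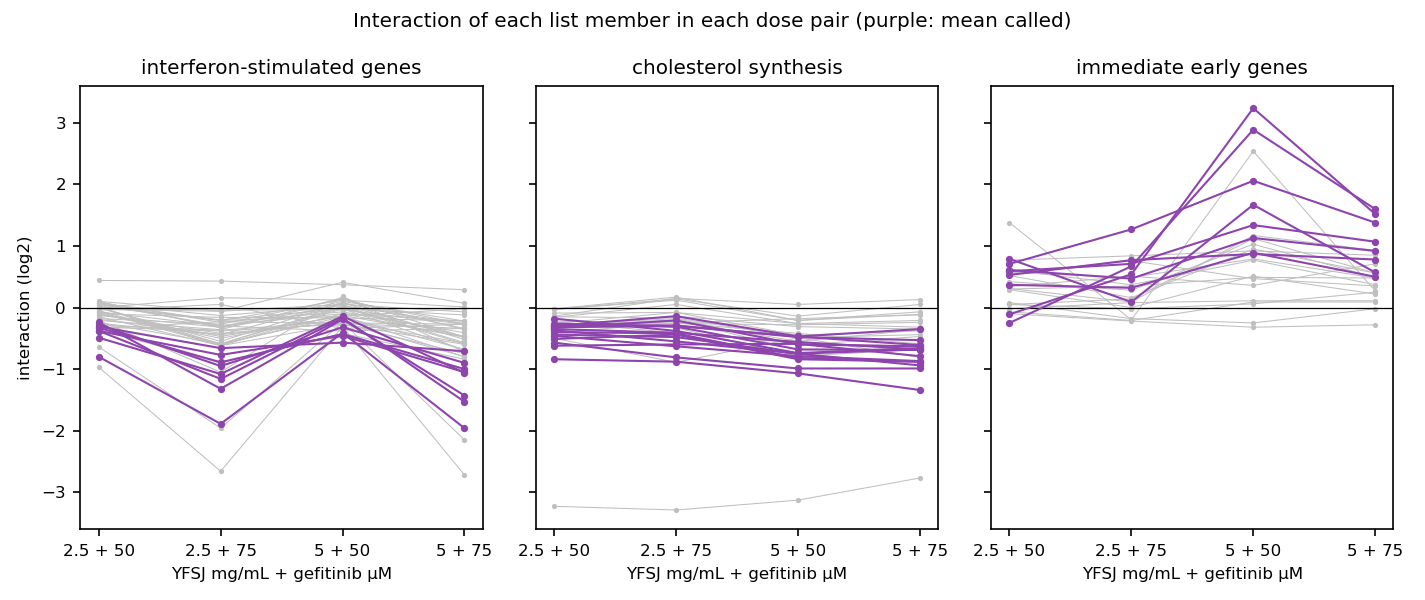
Interaction (log2) in each of the 4 dose pairs for the members of the interferon, sterol synthesis and immediate early lists; 1 line joins the values of 1 gene, and purple lines are genes called for the mean. The interferon medians were -0.11 and -0.14 with 50 µM gefitinib and -0.43 and -0.48 with 75 µM.

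Cytokine and adhesion genes moved in both directions. Of 30 NF-kB genes and inflammatory cytokines, 2 were above the product (IL11 and IL6) and 3 below (ICAM1, BIRC3 and TNFAIP2), with a median of -0.02. Over all genes 0.646% were above and 1.05% below. ICAM1, an adhesion molecule for leukocytes, was between 32.1 and 33.3 CPM untreated, 68.6 and 103 with YFSJ, and 82.1 and 90.1 with gefitinib. It was between 120 and 150 CPM in 11 combination libraries and at 81.9 in the library without the YFSJ rise. In those 11 libraries its level was therefore above every library of a single treatment. The group means of ICAM1, with the library without the YFSJ rise included, were 46.7% to 68.7% of the product. Its interaction was -0.77 (SE 0.11, adjusted p = 2.44e-05). BIRC3, an inhibitor of cell death, had -1.5 (SE 0.27, adjusted p = 0.000906). IL11, a cytokine of the IL-6 family, had 0.69 (SE 0.11, adjusted p = 0.000124): its YFSJ change was -0.65 (SE 0.09) without gefitinib and 0.04 (SE 0.06) with it. IL6 had 1.14 (SE 0.31, adjusted p = 0.0465), a call that 19 of the 27 omissions of a single library removed. EDN1, the vessel-constricting peptide endothelin, is on no list and had an interaction of 1.34 (SE 0.17, adjusted p = 4.5e-06). EDN1 was at 7.65, 9.08 and 6.67 CPM untreated and between 2.61 and 5.55 in all 24 treated libraries, with the combinations, at 3.47 to 5.55, overlapping both single treatments.

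Of 37 hypoxia and glycolysis genes 6 were below the product and none above (all genes: 1.05% and 0.646%), with a median of -0.13. The 6 were VEGFA, NDRG1, the glucose transporters SLC2A1 and SLC2A3, ALDOC and PFKFB4. VEGFA, the vessel growth factor, was between 77.7 and 85.9 CPM untreated, 142 and 171 with YFSJ, 87.4 and 115 with gefitinib, and 67.3 and 148 with both, and had an interaction of -0.74 (SE 0.13, adjusted p = 0.000553). Its rise under YFSJ alone, 0.89 (SE 0.11, adjusted p = 1.44e-07), was 0.15 (SE 0.07, adjusted p = 0.211) with gefitinib. NDRG1, a stress-induced growth inhibitor, had -0.66 (SE 0.09, adjusted p = 4.5e-06). Of 34 ATF4 and CHOP stress genes, 3 were below the product (all genes: 1.05%). They were STC2 at -0.74 (SE 0.11, adjusted p = 3.81e-05), VEGFA, and the amino acid carrier SLC7A5 at -0.55 (SE 0.14, adjusted p = 0.0285). SLC7A5 was not called with the liver term (adjusted p = 0.0589), with both set terms (0.053), with the GC correction (-0.38, 0.0736) or in 7 of the 27 omissions of a single library. The median of that list was 0.07, and gefitinib raised 32 of its 34 genes both alone and beside YFSJ (all genes: 30.2% and 36%), with medians of 1.42 and 1.44.

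Among 16 members of the BCL2 family, which decide on mitochondrial cell death, 1 lay above and 1 below the product (all genes: 0.646% and 1.05%). BMF, a BH3-only activator of death, was at 5.88, 5.09 and 6.51 CPM untreated, 9.23, 9.82 and 11 with 2.5 mg/mL YFSJ, and 10.4, 9.46 and 10.1 with 5 mg/mL. Gefitinib gave 19.3, 19.9 and 20.3 CPM at 50 µM and 19, 16.8 and 17.6 at 75 µM. The combinations gave 18.7, 19.8 and 17.2 (2.5 with 50), 14.4, 11.2 and 15.7 (2.5 with 75), 12.8, 12.5 and 19.8 (5 with 50), and 13.5, 11.1 and 11.6 (5 with 75). Each agent alone put BMF above every untreated library, but at 75 µM the combinations stayed below gefitinib alone, and 19.8 CPM at 5 with 50 was again the library without the YFSJ rise. BMF had an interaction of -1.13 (SE 0.17, adjusted p = 4.09e-05). PMAIP1, which encodes NOXA, had 0.61 (SE 0.13, adjusted p = 0.00409): every library of YFSJ or gefitinib alone was between 47.3 and 56.3 CPM, against 56.9 to 64.8 untreated, while 5 mg/mL with 75 µM gave 76.8, 72.4 and 73.8 CPM. BCL2L11, the death activator BIM, was at 0.02 and not called.

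Other genes at the ends of the ranking belong to varied pathways. Above the product were HES1, a Notch target, at 0.86 (SE 0.17, adjusted p = 0.00329), RASD1, a small GTPase, at 0.97 (SE 0.23, adjusted p = 0.0218), the stress keratin KRT16 at 0.77 (SE 0.14, adjusted p = 0.00104), and the histone gene HIST1H2BH at 0.82 (SE 0.2, adjusted p = 0.0218). Below it were DHRS3, which reduces retinal, at -1.26 (SE 0.17, adjusted p = 4.5e-06), SLC37A2, a sugar phosphate carrier, at -1.14 (SE 0.17, adjusted p = 3.81e-05), and ICOSLG, a ligand for T cells, at -1.1 (SE 0.16, adjusted p = 2.47e-05). ERVV-2, from an endogenous retrovirus with a close copy that could share its reads, had -1.4, CPAMD8 -1.27, SV2A -1.09, CYSRT1 -1.05 and C1QTNF1 -0.94. Leaving out replicate 1 of the untreated group ended the calls of RASD1, HIST1H2BH, ERVV-2, CPAMD8, SV2A and CYSRT1. DHRS3 lay between 7.94 and 10.3 CPM untreated, 13.5 and 19.2 with YFSJ, 19 and 25.6 with gefitinib, and 13.3 and 20 with both, and every combination library lay below all gefitinib libraries of its dose.

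The programmes that gefitinib lowered most held few interaction calls, as did the genes tested as a whole (1.7% called). None of 38 DNA replication genes was called for the interaction, and gefitinib lowered all 38 (all genes: 29.3% alone and 33.3% beside YFSJ) with a median of -1.98 alone and -1.96 beside YFSJ. Of 38 mitosis genes all were lowered too, with medians of -2.4 and -2.49, and 1, the mitotic kinase PLK1, was called below the product. With the GC correction 3 were (all genes: 0.956%). YFSJ with gefitinib lowered 8 of the 38 and raised 0 (all genes: 3.71% and 4.28%). YFSJ alone lowered 0 and raised 1 (all genes: 3.33% and 4.67%). No gene was called for the interaction among 26 of homologous recombination and Fanconi repair, 12 of HLA class I presentation, 20 YAP and TEAD targets, 31 respiratory chain subunits or 37 ribosomal proteins. All 37 ribosomal protein genes had a value above 0, with a median of 0.2, against 0.003 over all genes, and of 0.21 after the GC correction. They were read in the same libraries and are not 37 separate observations. Of 45 lysosome and autophagy genes 2 were below, the cholesterol exporter NPC1 at -0.43 and the autophagy receptor SQSTM1 at -0.36. Over all genes the called values nearest to 0 were 0.3 above and -0.28 below the product, and no smaller value was called.

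**Figure D5:**
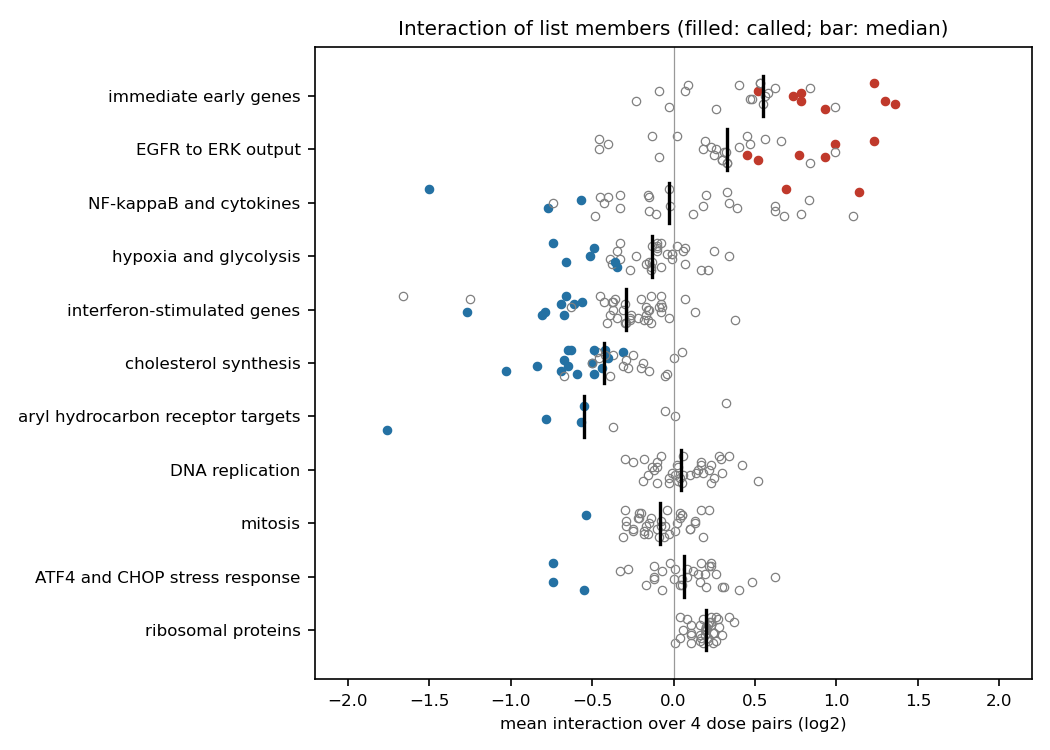
Interaction (log2) of each member of 11 gene lists, 1 row per list, with called members filled and the median as a bar; 2 members beyond 2.2 are not drawn. Medians run from -0.55 for aryl hydrocarbon receptor targets to 0.55 for immediate early genes, and lie at 0.05 and -0.09 for replication and mitosis.

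The number of genes called grew with the doses combined. The pair of 2.5 mg/mL with 50 µM gave 9 genes, all below the product (0.057%), among them DHRS3 and ICOSLG. With 75 µM the same YFSJ dose gave 25 above and 43 below (0.158% and 0.272%). At 5 mg/mL, 50 µM gave 22 above and 49 below (0.139% and 0.31%), and 75 µM gave 78 and 140 (0.494% and 0.887%). Without both libraries that stood apart the 4 pairs gave 21, 44, 249 and 348 genes. The highest values were FOSB at 3.24, FOS at 2.89 and DUSP1 at 2.06 in the pair of 5 mg/mL with 50 µM, and CYP1A1 was lowest there at -2.24. A count past a threshold is no test of a difference between doses. That test, 5 minus 2.5 mg/mL, called 10 genes (0.0633%): FOS at 2.03 (adjusted p = 0.00413) and FOSB at 2.17 (adjusted p = 0.0297) are the 2 outside liver and muscle, and the others are the liver genes HPX and BHMT and the muscle genes MYH1, MYH2, MYH4, ACTA1, TNNC2 and NEB, which follow the sets of libraries described above. In the fit of the 27 libraries alone FOS and FOSB were not called for this difference (adjusted p = 0.0676 and 0.0746 in edgeR). FOSB was also not called without the filter (0.0978) or without both libraries that stood apart (0.146). With the muscle term FOS was at 0.69 (adjusted p = 0.774 in edgeR). With the liver term, the muscle term or both edgeR called 0 genes, with 556, 936 and 521 at an unadjusted p under 0.05. DESeq2 without these terms called 20. The muscle term is estimated only within the groups of 2.5 mg/mL YFSJ with gefitinib, which alone mix libraries in and out of the set. With 75 µM the only library of the set is replicate 2, which stood apart. The liver term is estimated only within groups of CKI with gefitinib, described next. Whether the sets account for the lost calls was not tested.

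A second preparation, CKI at 1 or 2 mg/mL, was combined with the same gefitinib doses. Of the 12 libraries with CKI and gefitinib 7 held 2581 to 3312 counts of ALB, and the 6 of CKI alone at most 4. In the difference of the 2 interactions the gefitinib and untreated groups cancel, and it was called for 7233 genes (45.8%), of which 50.2% were higher for YFSJ, or 56.8% with library totals only. The doses of the 2 preparations differ and are not matched. TM7SF2, a sterol reductase, had an interaction of -0.5 with YFSJ and -3.5 with CKI (adjusted p = 2.66e-20 for the difference), ANKRD1, a YAP target, 0.36 and -2.61 (adjusted p = 4.81e-24), and RENBP, a renin-binding protein, -0.14 and -3.06 (adjusted p = 9.03e-22). HSPA6, an inducible heat shock protein, had -0.36 with YFSJ and 2.81 with CKI (adjusted p = 6.57e-21). DNA replication genes had medians of 0.05 with YFSJ and 1.59 with CKI, and all 38 differed between the preparations. Of the 268 genes called for YFSJ, 170 also differed from CKI. That difference contains the YFSJ interaction by which the 268 were chosen, so their share is no separate evidence. With the liver term, 4053 genes were called for the difference.

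Genes that gefitinib changed beside CKI were chosen in libraries that enter neither value compared next. Because liver transcripts were in most libraries of CKI with gefitinib and in none of CKI alone, the raised set takes them in, 7 of the 30 liver markers among them. The 556 genes raised at least 2-fold beside CKI had a median log2 change of 1.38 under gefitinib alone and 1.12 beside YFSJ. The 67 lowered at least 2-fold had medians of -0.65 and -0.87. With genes chosen and read in the fit with the liver term, added after the values were seen, 584 raised genes had medians of 1.34 and 1.03 and 121 lowered genes -0.62 and -0.55. A log2 change of 2 or more beside CKI left 67 raised genes, 6 of them liver markers, with medians of 1.14 under gefitinib alone and -0.11 beside YFSJ; with the liver term 58 genes had 1.64 and 0.98.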

How the data were processed

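Total RNA was read as paired-end libraries without strand, per the labels. The authors deposited a table of raw counts per gene symbol, 27978 genes by 48 libraries, of which 4194 genes had 0 counts throughout. Per the submitters' processing notes, Trim Galore 0.4.2, STAR 2.5.3a, edgeR and the build hg19 were used; the counting tool, annotation and strand setting are not given in the sources used here, so overlapping and antisense genes share reads. Replicates were not identical (chi-square per gene 3.97 to 48.2).

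These counts were modelled with edgeR 4.0.16 in R 4.3.3: filterByExpr (minimum count 10, minimum total 15) kept 15789 genes with 99.97% of counts, TMM factors scaled the libraries, and 1 mean was fitted for each of 16 groups over all 48 libraries (32 residual degrees of freedom). Contrasts were tested with the quasi-likelihood test (robust, two-sided) and p-values adjusted by Benjamini-Hochberg over all genes. CPM use TMM-scaled library sizes. Precision is set by counting error and by 3 libraries per group. Alternatives were RLE factors, library totals, DESeq2 1.42.0, no filter, the replicate block, the 27 libraries alone, a threshold of 0.01, an F test over the 4 pairs, a term for the liver set, single YFSJ doses, and each library left out. The GC correction, the muscle term, leaving out 2 libraries together and the liver term for genes chosen beside CKI were added after the values were seen. The script was tested on simulated counts.

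Named genes are the 12 highest and 12 lowest called values with at least 5 CPM in the highest group, the same sign in 4 dose pairs and no liver or intestine marker, then up to 3 members of each list with at least 3 calls, EGFR, ERBB2, ERBB3, MET and AXL, and the 3 highest and lowest called genes of the other comparisons. Other members of the lists are named to describe the list. Some genes enter the fit and the list counts but are not reported here. The genes, lists and motifs were chosen with earlier results of these data known. Promoter windows come from RefSeq on GRCh38.p14, matched by symbol.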

Additional observations from a re-analysis of the deposited data

Results flagged for a closer look

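The interaction differed between gefitinib doses for 5 genes, tested as 75 minus 50 µM. REC8 was at -1.42, IFI44L at -1.32, OAS2 at -1.16, MX1 at -1.07 and MX2 at -0.75, all lower at 75 µM. It differed between YFSJ doses, 5 minus 2.5 mg/mL, for 10 genes. FOS was at 2.03 and FOSB at 2.17, and the liver genes HPX and BHMT were at 4.18 and 4.94. The muscle genes MYH4, MYH2, MYH1, ACTA1, TNNC2 and NEB were at -12.78, -12.04, -9.79, -3.71, -3.36 and -2.21. Those fitted values come from genes near 0 counts in most groups and are no bound on a fold.

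The interaction differed between YFSJ and CKI for 7233 genes. TM7SF2 was at 3, ANKRD1 at 2.98 and RENBP at 2.93, higher for YFSJ, and HSPA6 was at -3.17. RMRP at -7.58 and RPPH1 at -7.12 are short noncoding RNAs for which the liver term moved the value, to -2.73 for RMRP with an adjusted p of 0.0714.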

How the results depend on the processing

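All 268 called genes kept their sign under every alternative named here that gives a sign. These alternatives reuse most of the same counts, so a kept sign is a weak check. The number still called ranged from 39 in the 2.5 mg/mL pairs alone to 267 without replicate 3 of 5 mg/mL with 50 µM. It was 77 without replicate 2 of the untreated group. The count above the product was 102, and became 183 with DESeq2, 51 without a filter, 20 at an adjusted p under 0.01, 62 with the liver term, 169 without both libraries that stood apart and 11 in the 2.5 mg/mL pairs alone. The count below was 166, and became 323 with DESeq2, 55 at 0.01, 106 with the liver term, 261 without both libraries and 33 in the 2.5 mg/mL pairs. RLE factors gave 96 and 177 and the 27 libraries alone 110 and 173. An F test over the 4 pairs called 87 genes in either direction in place of 268, with 72 shared. Leaving out 1 library gave 27 to 203 above and 54 to 297 below, lowest without replicate 2 of the untreated group and highest without replicate 3 of 50 µM gefitinib. For 2.5 mg/mL with 50 µM, 9 genes became 23 with DESeq2, 2 at 0.01, 1 with the liver term, 0 with both set terms (706 at an unadjusted p under 0.05) and 21 without both libraries. For 2.5 with 75, 68 became 158 with DESeq2, 21 at 0.01, 14 with the liver term, 41 with the muscle term, 4 with both and 44 without both libraries. For 5 with 50, 71 became 193 with DESeq2, 34 at 0.01, 47 with the muscle term, 40 with both, 117 with the GC correction and 249 without both libraries. For 5 with 75, 218 became 447 with DESeq2, 142 without a filter, 55 at 0.01, 115 with the muscle term, 102 with both and 348 without both libraries. The 10 genes that differed between YFSJ doses became 20 with DESeq2, 4 at 0.01, 4 without both libraries and 0 with the liver term, the muscle term or both. The 5 that differed between gefitinib doses became 8 with library totals, 9 with DESeq2, 3 at 0.01 and 9 with both set terms. The difference from CKI, 7233 genes, became 4053 with the liver term and 4210 with both. Leaving out 1 library gave ranges of 2 to 16, 22 to 149, 40 to 186 and 77 to 295 for these 4 pairs, 3 to 13 and 0 to 8 for the dose differences, and 6913 to 7446 for the difference from CKI. For genes that gefitinib raised beside CKI, a minimum log2 change of 2 in place of 1 left 67 genes, whose median change beside YFSJ was -0.11, or 0.98 over 58 genes with the liver term. The medians of the 67 were -0.62 and -1.04 beside 2.5 mg/mL YFSJ and 1.21 and 1.24 beside 5 mg/mL. The cause of these shifts was not tested. With the replicate block 84 genes were called above and 149 below. The numbers do not pair the libraries: 21 of 108 same-number pairs of libraries correlated above 0.1 in their deviations from group means, and 5 of 27 libraries were closest to their own number.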
